A study of Homo sapiens with 12 samples.

Results

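The 36 transcripts described here encode the machinery that shortens, covers and degrades the 3′ end of mRNA: the CCR4-NOT deadenylase, the deadenylases PAN2-PAN3 and PARN, 3 poly(A)-binding proteins, the RNA exosome with its nucleases, and the SKI helicase complex with the ribosome rescue factors PELO and HBS1L. They were chosen by gene symbol, and all 36 were found among the 23615 entries of each expression table. RQCD1 is the older symbol of CNOT9, and SKIV2L2 is the older symbol of MTREX (MTR4). The samples were cultures of HEK293T, an established line of embryonic kidney origin that expresses SV40 large T antigen. The cells were treated with 2 μM CP25, a macrocycle described as inhibiting human Dcp2, the enzyme that removes the mRNA cap, or with an equal volume of vehicle, the buffer in which the peptide was stored. After 18 h of that treatment, transcription was stopped with 5 μg/mL actinomycin D, which was left on for 2 h or for 0 h before RNA extraction. Each of the 2 treatments was thus sequenced at both times, in 4 groups of 3 poly(A) RNA libraries, all from the same cell line. The labels do not say whether the libraries came from separate cultures, so a p-value here is set against a library-to-library spread that may be technical.

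Most mRNAs begin to decay when deadenylases shorten the poly(A) tail. In the textbook scheme PAN2-PAN3 trims long tails first and CCR4-NOT removes the rest, while poly(A)-binding proteins coat the tail and govern access to it. A transcript without its tail is then decapped by Dcp2 and degraded from the 5′ end, or it is degraded from the 3′ end by the exosome, which in the cytoplasm is fed by the SKI helicase. Pelota and HBS1L release ribosomes stalled near a broken or missing 3′ end so that such mRNA can be cleared.

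Levels are FPKM, fragments mapped to a transcript, scaled by its length and by the mapped fragments of the library, so each is a share of its library. Fewer mRNA copies per cell and a smaller share of the library cannot be told apart in such data. The depth is known here only as an estimate. Reading it from the smallest steps between FPKM values put the 2 h libraries at 22.0 to 29.4 × 10⁶ fragments and the 0 h libraries at 13.2 to 22.0 × 10⁶, with vehicle replicate 1 at 0 h the lowest. About 230 fragments or more stood behind every member's value in every library. VIM, KRT18 and LIN28B, which HEK293T cells are known to express, were present in all 12 libraries, with VIM between 163 and 275 FPKM. UMOD of differentiated kidney, CD3E of T cells and KRT5 of keratinised epithelium were listed at 0. DCP2 itself, the target of CP25, averaged 21.6 ± 2.88 FPKM in CP25 and 22.0 ± 1.56 FPKM in vehicle at 2 h (SD, n = 3 each).

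All 36 transcripts were expressed, each at 1 FPKM or more in every library. Their median level was 30.9 FPKM in CP25 and 30.8 FPKM in vehicle at 2 h, and 33.4 FPKM in CP25 and 32.6 FPKM in vehicle at 0 h. The median over all 12183 genes that averaged 1 FPKM or more was 9.97 FPKM in both treatments at 2 h, and 12.8 FPKM in CP25 and 13.0 FPKM in vehicle at 0 h. PABPC1 had the highest level of the 36 in each group and PABPC4 the next, with CNOT1 and CNOT7 after them. The ranges of CNOT1 and CNOT7 overlapped at 2 h, so their order was not resolved there. DIS3L2 was the lowest at 0 h, and PELO was the lowest at 2 h.

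**Figure D1:**
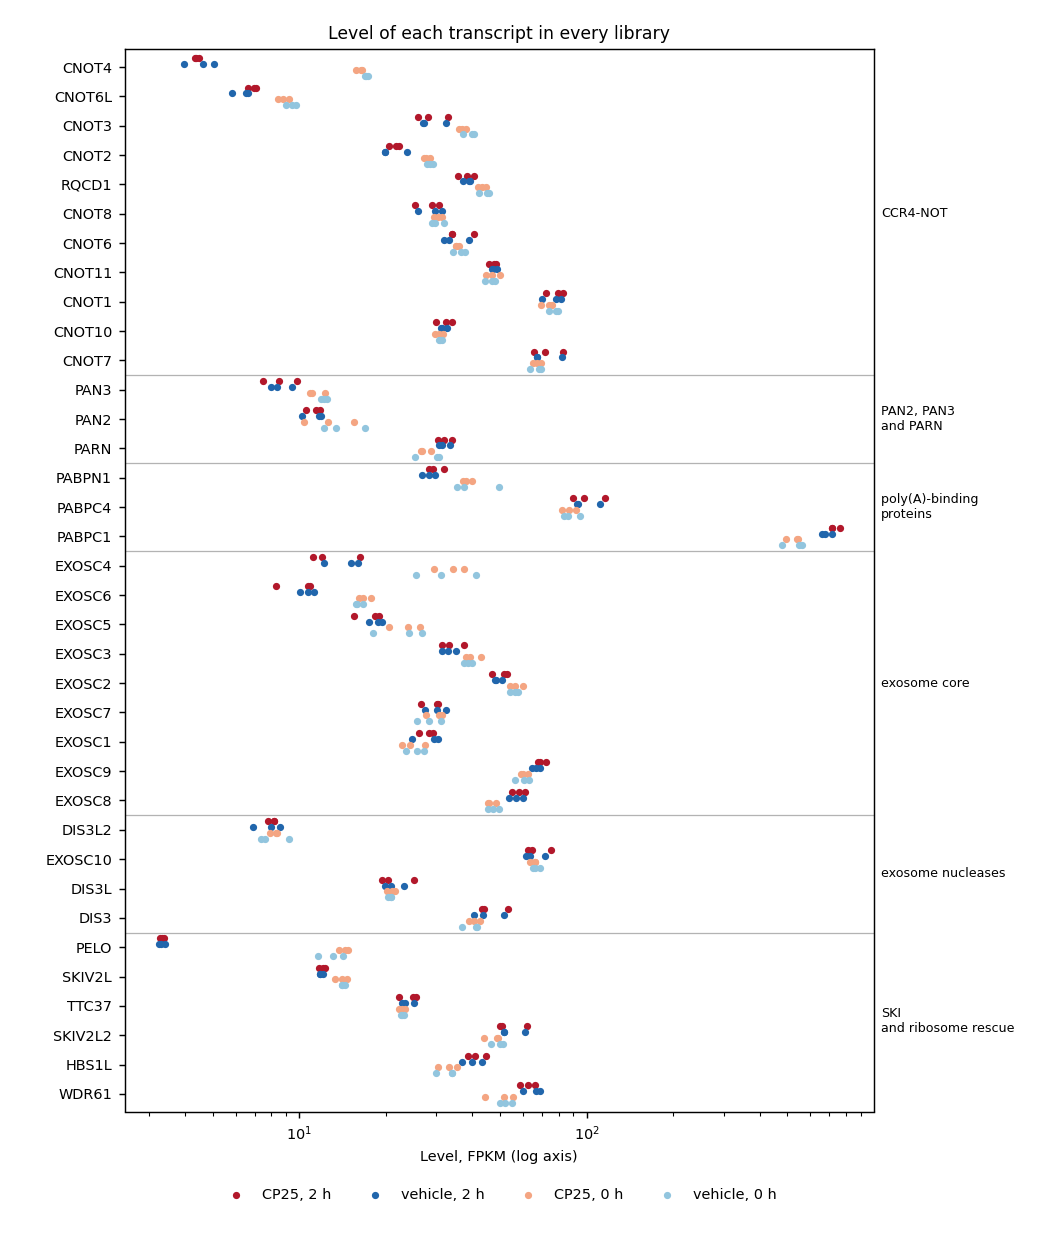
Level of each transcript in FPKM (log axis) in each of the 12 libraries, grouped by role and ordered within a role by the ratio of 2 h to 0 h. Red and dark blue points are CP25 and vehicle at 2 h, orange and light blue points CP25 and vehicle at 0 h; PABPC1 lies at 480 FPKM or more throughout, and CNOT4, EXOSC4 and PELO lie far to the left at 2 h.

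The main contrast within the set was between transcripts at 2 h and at 0 h of actinomycin D. On the deposited scale PELO, CNOT4 and EXOSC4 stood at less than a log2 ratio of -1 relative to 0 h in both treatments, and the other 33 members lay above it. The 2 times were deposited as separate tables that may have been scaled separately, so these ratios are described and not tested. A ratio is the mean log2(FPKM + 1) at 2 h minus that at 0 h, and a percentage left is the mean FPKM at 2 h as a percentage of that at 0 h. The median log2 ratio of the 36 was -0.01 in CP25 and -0.03 in vehicle, against -0.16 in CP25 and -0.18 in vehicle over all 12183 genes. The 3 members below -1 compare with 7.22% of all genes in CP25 and 7.26% in vehicle. For EXOSC4 this depended on the scaling and, in vehicle, on single libraries. Its ratio was -0.98 in CP25 and -0.76 in vehicle with libraries centred on their median, and -1.13 in CP25 and -0.93 in vehicle after quantile normalization. In vehicle it was also -0.93 without vehicle replicate 3 at 0 h and -0.998 without vehicle replicate 1 at 2 h. Ratios above 0 were found for 18 members in CP25 and 16 in vehicle, 15 of them in both, against 34.1% of all genes in CP25 and 32.0% in vehicle. In 14 members in each treatment, every 2 h library lay below every 0 h library (44.0% of all genes in CP25, 46.0% in vehicle). Every 2 h library lay above every 0 h library in 8 members in CP25 and 6 in vehicle, against 15.5% and 15.0% of all genes.

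How a ratio near 0 is read depends on the scaling. The member median lay 0.15 above the all-gene median in CP25 and 0.14 above it in vehicle on the deposited scale, but 0.00115 above it in CP25 and below it in vehicle (-0.03) after quantile normalization. The position of each transcript relative to the all-gene median was therefore compared on the deposited scale and after quantile normalization; centring libraries on their median shifts all genes alike and cannot change it. In both treatments and on both scales, 13 members stayed above the all-gene median and 12 stayed below it. How many of all genes keep a side was not counted, so these numbers do not set the members apart from other genes. The 13 were CNOT10, PARN, PABPC4, EXOSC1, EXOSC8, EXOSC9, DIS3, DIS3L, DIS3L2, SKIV2L2, TTC37, WDR61 and HBS1L. The 12 were CNOT2, CNOT3, CNOT4, RQCD1, PAN3, PABPN1, EXOSC2, EXOSC3, EXOSC4, EXOSC5, EXOSC6 and PELO. The other 11, among them CNOT1, CNOT7 and PABPC1, changed side. Some members that kept their side did so by a small margin. PABPC4 lay 0.00695 from the all-gene median in vehicle after quantile normalization. On the deposited scale EXOSC2 lay at -0.0118 in CP25 and -0.0162 in vehicle, and RQCD1 at -0.0171 and -0.0236. The sides were not checked with single libraries left out.

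**Figure D2:**
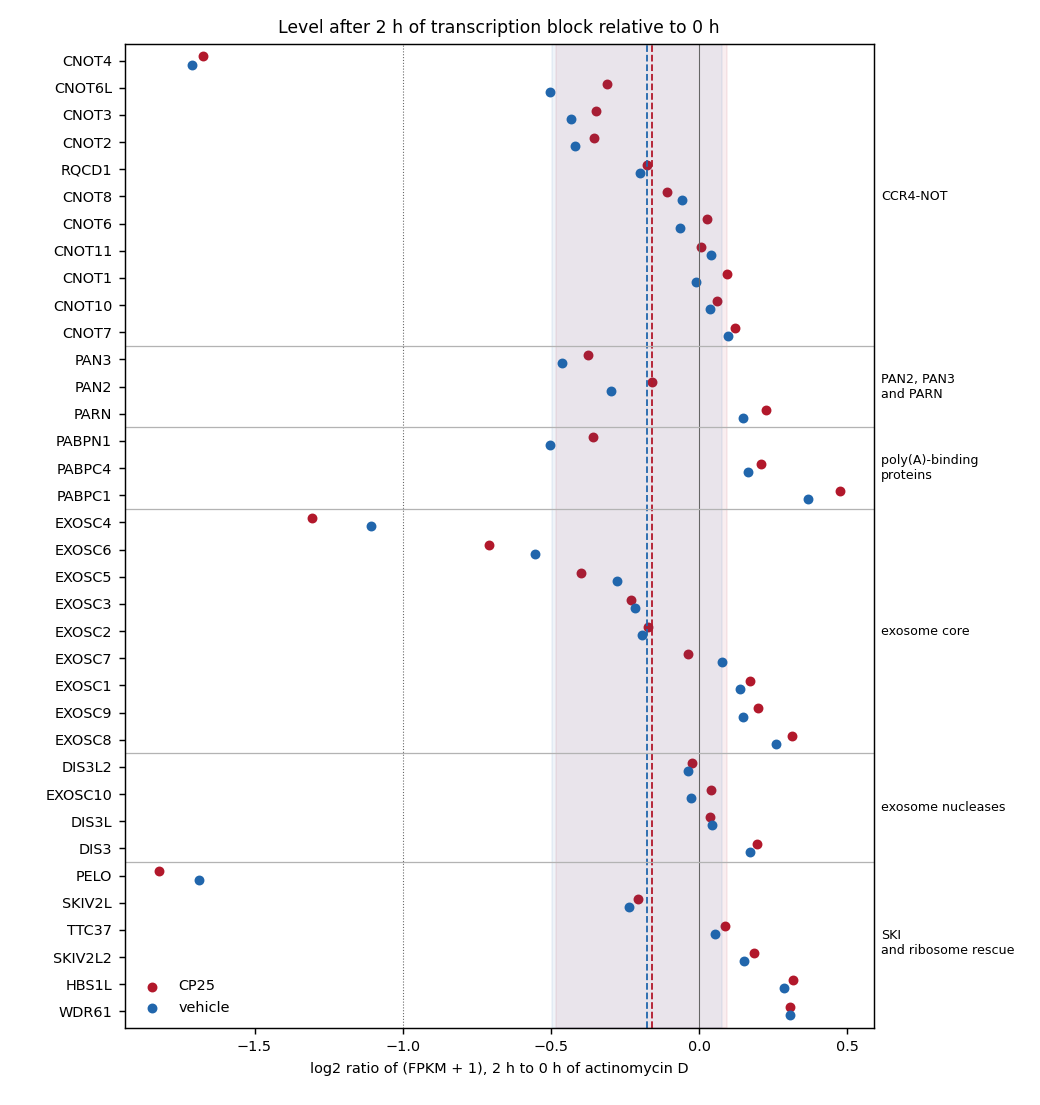
Log2 ratio of FPKM + 1 at 2 h to that at 0 h for each transcript in CP25 (red) and vehicle (blue), grouped by role. Dashed lines are the all-gene medians (-0.16 and -0.18), the shaded bands span the quartiles of all genes, and the dotted line marks -1, which PELO, CNOT4 and EXOSC4 lie below in both treatments.

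In the CCR4-NOT complex, the 11 transcripts had a median log2 ratio of -0.11 in CP25 and -0.07 in vehicle, and 5 of them had all 2 h libraries below all 0 h libraries in both treatments, or 45.5%, near the 44.0% in CP25 and 46.0% in vehicle over all genes. CNOT1, the scaffold on which the complex is built, measured 79.2, 82.8 and 72.3 FPKM at 2 h and 69.6, 74.2 and 75.5 FPKM at 0 h in CP25. In vehicle CNOT1 measured 70.1, 81.7 and 78.1 FPKM at 2 h and 74.0, 79.5 and 78.0 FPKM at 0 h. The 2 h and 0 h libraries overlapped in both treatments. CNOT4, a RING-type ubiquitin ligase that bears the complex's name, behaved differently. Its level was 4.33, 4.47 and 4.37 FPKM at 2 h against 16.5, 15.7 and 16.3 FPKM at 0 h in CP25. In vehicle it was 3.96, 5.03 and 4.62 FPKM at 2 h against 16.9, 17.0 and 17.3 FPKM at 0 h. No library overlapped between the times, and 27.1% of the 0 h level was left in CP25 and 26.6% in vehicle. In the distribution of all tested genes, 1.30% had a lower mean ratio than CNOT4.

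The catalytic subunits come in 2 pairs of paralogs. CNOT7, a Caf1-type nuclease, measured 65.8, 82.6 and 71.8 FPKM at 2 h and 65.2, 67.1 and 69.2 FPKM at 0 h in CP25. In vehicle CNOT7 measured 67.4, 82.1 and 67.2 FPKM at 2 h and 63.8, 69.5 and 68.1 FPKM at 0 h. It had the highest ratio of the complex on the deposited scale, 0.12 in CP25 and 0.10 in vehicle, with overlapping libraries, and lay below the all-gene median after quantile normalization. CNOT8, its paralog, measured 29, 25.2 and 30.6 FPKM at 2 h and 30.4, 31.5 and 29.5 FPKM at 0 h in CP25. In vehicle CNOT8 measured 29.7, 25.9 and 31.5 FPKM at 2 h and 28.9, 31.9 and 29.8 FPKM at 0 h. Per length, CNOT7 was thus the more abundant of the pair in every library. CNOT6, a Ccr4-type nuclease, measured 33.9, 40.5 and 33.9 FPKM at 2 h and 35.0, 35.1 and 36.0 FPKM at 0 h in CP25. In vehicle CNOT6 measured 33.2, 38.9 and 31.9 FPKM at 2 h and 34.3, 36.4 and 37.8 FPKM at 0 h, and its libraries overlapped in both treatments. Its paralog CNOT6L was less abundant and lower at 2 h by value in every library. It measured 6.96, 6.65 and 7.06 FPKM at 2 h against 8.41, 9.18 and 8.80 FPKM at 0 h in CP25. In vehicle CNOT6L measured 5.82, 6.53 and 6.63 FPKM at 2 h against 8.96, 9.77 and 9.41 FPKM at 0 h. The share left was 78.3% in CP25 and 67.5% in vehicle, and its side of the all-gene median changed with the scaling in CP25.

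Of the remaining subunits, CNOT2 and CNOT3, which form the module that binds the CNOT1 C terminus, had 77.5% and 78.4% left in CP25 and 74.2% and 73.7% in vehicle. RQCD1 (CNOT9), a docking site for proteins that recruit the complex, had 88.2% left in CP25 and 86.7% in vehicle. These 3 had no overlap between the times. CNOT10 and CNOT11, which bind the other end of CNOT1, stood at 104% and 100% in CP25 and 103% in vehicle for both, with overlapping libraries. Their levels at 2 h were 32.1 ± 2.04 FPKM for CNOT10 and 47.3 ± 1.44 FPKM for CNOT11 in CP25, and 31.7 ± 0.840 and 47.7 ± 0.993 FPKM in vehicle (SD, n = 3). CNOT2, CNOT3 and RQCD1 averaged 21.5, 28.9 and 38.2 FPKM in CP25 at 2 h, against 27.8, 36.9 and 43.3 FPKM in CP25 at 0 h.

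Among the other deadenylases of the set, PAN3 and PARN pointed opposite ways by value. PAN3, the adaptor that ties the PAN2 nuclease to poly(A)-binding protein, measured 8.52, 9.81 and 7.50 FPKM at 2 h against 12.2, 11.1 and 10.9 FPKM at 0 h in CP25. In vehicle PAN3 measured 7.99, 9.44 and 8.33 FPKM at 2 h against 12.5, 12.2 and 11.9 FPKM at 0 h. No library overlapped, and 75.4% was left in CP25 and 70.5% in vehicle. PARN, a cap-binding deadenylase known for trimming the tails of noncoding RNAs, measured 31.9, 34.1 and 30.5 FPKM at 2 h against 26.6, 26.7 and 28.7 FPKM at 0 h in CP25. In vehicle PARN measured 31.4, 33.6 and 30.6 FPKM at 2 h against 25.3, 30.1 and 30.7 FPKM at 0 h. PARN stood at 118% in CP25, without overlap, and at 111% in vehicle, where the libraries overlapped. PAN2, the nuclease, averaged 11.3 ± 0.646 FPKM at 2 h and 12.8 ± 2.56 FPKM at 0 h in CP25. In vehicle it averaged 11.3 ± 0.925 FPKM at 2 h and 14.2 ± 2.45 FPKM at 0 h (SD, n = 3 in each group).

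The poly(A)-binding proteins held both the most abundant transcript of the set and a nuclear member that was lower at 2 h by value. PABPC1, the main cytoplasmic poly(A)-binding protein, measured 760, 714 and 716 FPKM at 2 h against 495, 540 and 542 FPKM at 0 h in CP25. In vehicle PABPC1 measured 716, 677 and 660 FPKM at 2 h against 480, 561 and 551 FPKM at 0 h. All 2 h libraries lay above all 0 h libraries in both treatments, at 139% in CP25 and 129% in vehicle. On the deposited scale this was the highest ratio of the set, 0.63 above the all-gene median in CP25 and 0.55 in vehicle, but it was 0.18 above in CP25 and level with that median in vehicle (-0.00481) after quantile normalization. PABPC1 has processed pseudogenes, so how its reads were assigned is uncertain. PABPC4, another cytoplasmic member, averaged 101 ± 13.6 FPKM at 2 h and 87.1 ± 4.99 FPKM at 0 h in CP25, and 99.3 ± 10.6 FPKM at 2 h and 88.2 ± 5.90 FPKM at 0 h in vehicle (SD, n = 3), with overlap. PABPN1, the nuclear poly(A)-binding protein that acts during tail synthesis, measured 28.3, 31.8 and 29.1 FPKM at 2 h against 39.8, 38.1 and 37.3 FPKM at 0 h in CP25. In vehicle PABPN1 measured 26.8, 29.7 and 28.3 FPKM at 2 h against 49.5, 37.4 and 35.5 FPKM at 0 h. The libraries did not overlap, and 77.5% was left in CP25 and 69.2% in vehicle. PABPN1 shares 653 exonic bases on the same strand with the read-through gene BCL2L2-PABPN1 in GENCODE 29, so its reads may be divided between both.

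The 9-subunit exosome core spanned the range from EXOSC4 to EXOSC8, with a median log2 ratio of -0.17 in CP25 and -0.19 in vehicle. EXOSC4 (RRP41), a ring subunit whose mRNA has been reported as a Dcp2 substrate, measured 11.2, 12 and 16.3 FPKM at 2 h against 29.5, 34.2 and 37.5 FPKM at 0 h in CP25. In vehicle EXOSC4 measured 12.2, 15.2 and 15.9 FPKM at 2 h against 25.5, 31.2 and 41.3 FPKM at 0 h. No library overlapped between the times, with 39.0% left in CP25 and 44.2% in vehicle. EXOSC4 also varied more between libraries than any other member in 3 of the 4 groups, with a coefficient of variation of 21.0% in CP25 and 13.7% in vehicle at 2 h, and 24.4% in vehicle at 0 h. In all 4 groups the library numbered 1 had its lowest value and the library numbered 3 its highest. EXOSC6 (MTR3), another ring subunit, had the next lowest ratio of the core, with 59.2% left in CP25 and 66.1% in vehicle and no overlap. EXOSC6 averaged 9.98 ± 1.47 FPKM at 2 h and 16.9 ± 0.846 FPKM at 0 h in CP25 (SD, n = 3).

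At the other end of the core, EXOSC8 (RRP43), also a ring subunit, measured 58.4, 55.0 and 61.0 FPKM at 2 h against 45.4, 48.3 and 45.8 FPKM at 0 h in CP25. In vehicle EXOSC8 measured 60.0, 56.7 and 53.7 FPKM at 2 h against 47.2, 49.4 and 45.2 FPKM at 0 h. Every 2 h library lay above every 0 h library, at 125% in CP25 and 120% in vehicle. EXOSC9 (RRP45) showed the same separation, at 115% in CP25 and 111% in vehicle, with means of 69.7 FPKM at 2 h and 60.6 FPKM at 0 h in CP25. The other ring subunits, EXOSC5 and EXOSC7, stood at 74.7% and 97.4% in CP25 and 80.7% and 105% in vehicle. Their levels at 2 h in CP25 were 17.6 ± 1.85 FPKM for EXOSC5 and 29.1 ± 2.15 FPKM for EXOSC7. The cap subunits EXOSC1, EXOSC2 and EXOSC3, which carry the RNA-binding domains, stood at 113%, 88.6% and 85.0% in CP25 and at 111%, 87.3% and 85.7% in vehicle. They averaged 27.9, 50.4 and 34.1 FPKM in CP25 at 2 h.

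The 4 nucleases associated with this pathway had a median log2 ratio of 0.04 in CP25 and 0.01 in vehicle on the deposited scale. DIS3 had the highest ratio of the 4, 0.19 in CP25 and 0.17 in vehicle. DIS3, the processive nuclease of the nuclear exosome, measured 44.1, 53.1 and 43.4 FPKM at 2 h against 38.8, 40.7 and 42.5 FPKM at 0 h in CP25. In vehicle DIS3 measured 43.5, 51.5 and 40.7 FPKM at 2 h against 36.9, 41.2 and 41.7 FPKM at 0 h. The groups separated in CP25, where DIS3 stood at 115%, and overlapped in vehicle, at 113%. DIS3 shares 1180 exonic bases on opposite strands with BORA, and whether counting used the strand is not given in the sources used here. BORA stood at 11.8 FPKM in both treatments at 2 h, against 19.7 FPKM in CP25 and 20.3 FPKM in vehicle at 0 h. Other members also share exonic bases with a gene on the opposite strand. Among them are CNOT1 with SETD6 (1086 bases), SKIV2L2 with PLPP1 (481) and EXOSC4 with AC109322.1 (274). The part of such overlaps in the values was not tested. DIS3L2, a cytoplasmic nuclease that acts without the exosome on uridylated RNA, measured 7.76, 8.19 and 8.18 FPKM at 2 h and 8.32, 8.37 and 7.92 FPKM at 0 h in CP25. In vehicle DIS3L2 measured 6.90, 8.55 and 7.96 FPKM at 2 h and 7.37, 9.17 and 7.57 FPKM at 0 h, again with overlap. EXOSC10 (RRP6), the distributive nuclear nuclease, and DIS3L, the cytoplasmic counterpart of DIS3, both stood at 103% in CP25, and at 98.3% and 103% in vehicle. EXOSC10 averaged 67.3 FPKM and DIS3L 21.6 FPKM in CP25 at 2 h.

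The SKI helicase complex and the rescue factors held PELO beside WDR61 and HBS1L, and the ratios of WDR61 and HBS1L were among the highest. PELO had the lowest log2 ratio of all 36 transcripts in CP25 and the lowest but for CNOT4 in vehicle. By percentage left PELO was the lowest in vehicle too, at 25.6% against 26.6% for CNOT4. SKIV2L, the SKI2 helicase, measured 12.3, 12.1 and 11.7 FPKM at 2 h against 14.1, 14.7 and 13.3 FPKM at 0 h in CP25. In vehicle SKIV2L measured 12.1, 11.8 and 11.8 FPKM at 2 h against 14, 14.1 and 14.4 FPKM at 0 h. The libraries did not overlap, with 85.7% left in CP25 and 83.8% in vehicle, and SKIV2L lay on either side of the all-gene median depending on the scaling. WDR61 (SKI8), which also belongs to the PAF transcription complex, measured 62.5, 66.1 and 58.8 FPKM at 2 h against 44.4, 51.8 and 55.4 FPKM at 0 h in CP25. In vehicle WDR61 measured 66.5, 68.8 and 60.1 FPKM at 2 h against 50.1, 51.8 and 55.2 FPKM at 0 h. It stood at 124% in both treatments, without overlap. TTC37 (SKI3), the scaffold of the complex, averaged 24.3 ± 1.74 FPKM at 2 h and 22.7 ± 0.534 FPKM at 0 h in CP25, and 23.7 ± 1.21 FPKM at 2 h and 22.8 ± 0.296 FPKM at 0 h in vehicle (SD, n = 3). SKIV2L2 (MTR4), the helicase of the nuclear exosome, averaged 54.2 ± 6.79 FPKM at 2 h and 47.3 ± 2.94 FPKM at 0 h in CP25, and 54.9 ± 5.49 FPKM at 2 h and 49.2 ± 2.48 FPKM at 0 h in vehicle. Its libraries separated in both treatments, at 114% in CP25 and 112% in vehicle.

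PELO encodes Pelota, which enters the empty site of a stalled ribosome and splits it together with the GTPase HBS1L. PELO measured 3.38, 3.33 and 3.27 FPKM at 2 h against 14.7, 13.7 and 14.4 FPKM at 0 h in CP25. In vehicle PELO measured 3.24, 3.41 and 3.31 FPKM at 2 h against 11.6, 13.1 and 14.2 FPKM at 0 h. The 6 libraries at 2 h were nearly equal and all far below the 6 at 0 h, with 23.2% left in CP25 and 25.6% in vehicle. Among all tested genes, 1.08% had a lower mean ratio. HBS1L, whose short isoform also links the exosome to the SKI complex, measured 41.0, 44.5 and 38.6 FPKM at 2 h against 30.4, 33.1 and 35.4 FPKM at 0 h in CP25. In vehicle HBS1L measured 39.8, 43.2 and 37.0 FPKM at 2 h against 29.9, 33.9 and 34.0 FPKM at 0 h. Here every 2 h library lay above every 0 h library, at 125% in CP25 and 123% in vehicle. PELO lies within ITGA1 and shares 475 exonic bases with it on the same strand in GENCODE 29. ITGA1 averaged 4.96 FPKM in CP25 and 4.53 FPKM in vehicle at 2 h, and 4.77 FPKM in CP25 and 4.63 FPKM in vehicle at 0 h. Its part in the PELO value was not tested.

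Proteins bound to AU-rich elements in 3′ UTRs are known to recruit deadenylases, so the 3′ UTRs of this pair were read from the GENCODE 29 transcripts (GRCh38). Both are long. PELO, on chromosome 5, has 2206 bases and 10 copies of ATTTA, and HBS1L, on chromosome 6, has 4901 bases and 21 copies. Here and below, a copy of ATTTA that overlaps a counted one was not counted, so runs of overlapping copies are undercounted. The longer motif TATTTAT, which contains ATTTA, was searched on the mRNA strand. It occurred in PELO as 1 run of overlapping copies, starting at base 844 of the 3′ UTR, and in HBS1L at bases 966, 2010 and 3164. The windows are shown because the partners differ so much in ratio, and capitals mark the motif.
PELO 1: atgctatatTATTTATTTATttttttgct
HBS1L 1: ccccaaggttTATTTATttaacaacag
HBS1L 2: gattgaatttTATTTATtaatacttcc
HBS1L 3: ccctctaaaaTATTTATagaaatatgt
Per kb of 3′ UTR, ATTTA occurred 4.28 times in HBS1L and 4.53 times in PELO. Over the 35 members with an annotated 3′ UTR in the transcript used, 26 (74.3%) held ATTTA and 13 (37.1%) held TATTTAT. The member left out of these shares and of the correlations below was CNOT4, with a mean log2 ratio of -1.69. Some of the 3′ UTRs used were short, such as that of PAN3 with 17 bases. In all 10760 tested genes with a 3′ UTR the shares were 71.7% and 34.1%, and in the 2694 with a 3′ UTR of 2 to 5 kb they were 96.1% and 57.5%. Across the 35 members, Spearman's rho between ATTTA copies per kb and the mean ratio was 0.30, and across all tested genes it was 0.0896. For the GC content of the 3′ UTR, rho with the mean ratio was -0.36 across the members and -0.28 across all tested genes. Transcripts of one library share its depth and base composition, so these are descriptions only.

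The FPKM ratio of partner transcripts within a library is not changed by a factor common to that library, but it is changed by quantile normalization. The HBS1L to PELO ratio of FPKM was 12.1, 13.4 and 11.8 at 2 h against 2.06, 2.41 and 2.45 at 0 h in CP25. In vehicle it was 12.3, 12.7 and 11.2 at 2 h against 2.58, 2.58 and 2.40 at 0 h. The times were far apart in both treatments, and the treatments overlapped at 2 h. The CNOT6 to CNOT6L ratio averaged 5.26 ± 0.729 at 2 h and 4.02 ± 0.179 at 0 h in CP25, and 5.49 ± 0.607 at 2 h and 3.86 ± 0.145 at 0 h in vehicle (SD, n = 3). The ratio of the nuclear helicase SKIV2L2 to the cytoplasmic SKIV2L averaged 4.50 ± 0.556 at 2 h and 3.38 ± 0.275 at 0 h in CP25, and 4.63 ± 0.499 at 2 h and 3.47 ± 0.144 at 0 h in vehicle. In these 3 pairs every 2 h library lay above every 0 h library on the deposited scale. The difference between the partners' log2 ratios of 2 h to 0 h was 2.14 in CP25 and 1.97 in vehicle for HBS1L minus PELO as deposited, and 1.81 in CP25 and 1.62 in vehicle after quantile normalization. For CNOT6 minus CNOT6L it was 0.34 in CP25 and 0.44 in vehicle as deposited, but -0.03 in CP25 and 0.06 in vehicle after quantile normalization. For SKIV2L2 minus SKIV2L it was 0.39 in both treatments as deposited, and 0.09 in CP25 and 0.06 in vehicle after quantile normalization. The 2 h and 0 h libraries overlapped for CNOT7 to CNOT8, PAN2 to PAN3 and PABPC1 to PABPC4, which averaged 2.63, 1.32 and 7.31 at 2 h and 2.21, 1.12 and 6.05 at 0 h in CP25. The differences between the times were not tested.

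**Figure D3:**
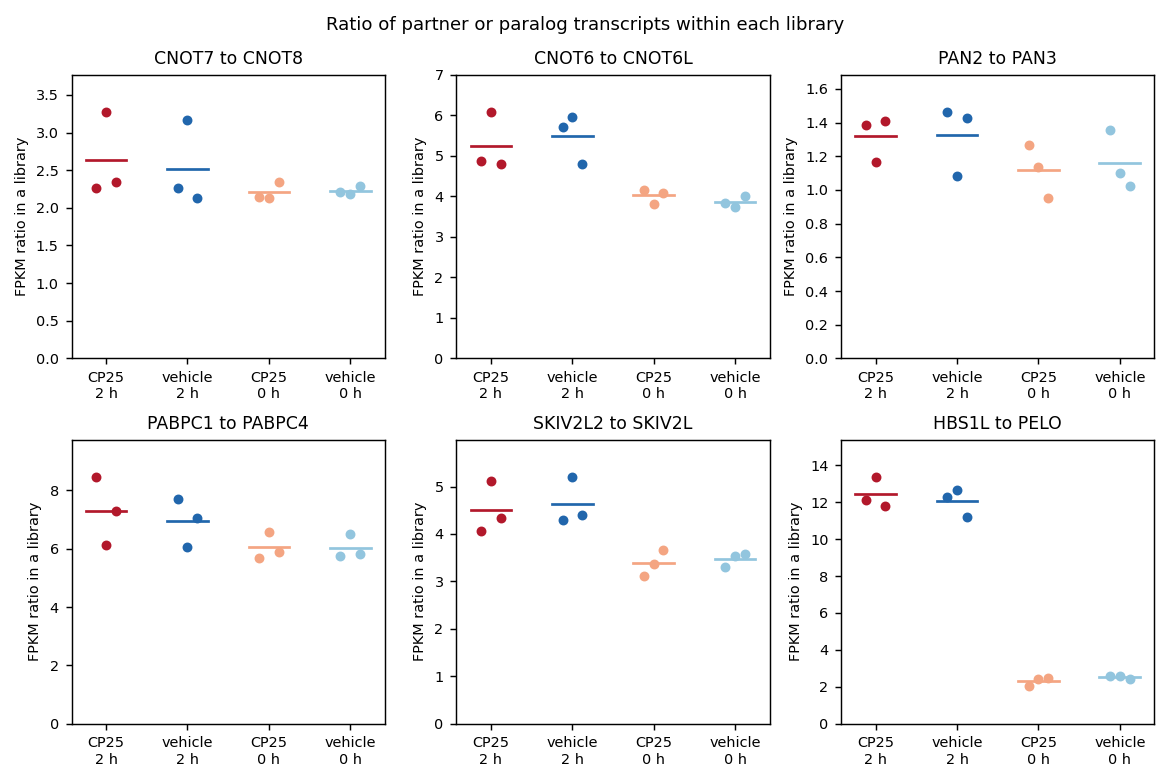
FPKM ratio of 6 pairs of partner or paralog transcripts within each library (points) with the group mean (line), for CP25 and vehicle at 2 h and at 0 h. HBS1L to PELO lies between 11.2 and 13.4 in the 6 libraries at 2 h and between 2.06 and 2.58 at 0 h.

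Further genes of tail metabolism, 30 measured of 33 listed, are set beside the 36 for context. PNLDC1, PABPC3 and PABPC5 stayed below the minimum of 1 FPKM. Log2 ratios below -1 were found for 1 of the 30 in CP25 (3.33%) and 2 in vehicle (6.67%), against 7.22% and 7.26% of all genes. Ratios above 0 were found for 6 in each treatment (20.0%), against 34.1% of all genes in CP25 and 32.0% in vehicle. The other deadenylases (5 measured) had a median of -0.58 in CP25 and -0.66 in vehicle. The lowest was CCRN4L (nocturnin), at 3.38 ± 0.744 FPKM at 2 h and 12.5 ± 1.19 FPKM at 0 h in CP25, with 27.1% left in CP25 and 23.9% in vehicle. ANGEL2 was the highest of that list, with 90.3% left in CP25 and 76.0% in vehicle. The enzymes that add tails (8 measured) had a median of -0.44 in CP25 and -0.58 in vehicle, and split between PAPOLA and PAPOLG, both nuclear poly(A) polymerases. PAPOLA stood at 128% in CP25 and 123% in vehicle, and PAPOLG at 46.7% and 44.0%. Relatives and partners of poly(A)-binding protein (11 measured) had medians of -0.17 in CP25 and -0.23 in vehicle. PABPC4L was left at 47.9% in CP25 and 42.0% in vehicle, and PAIP2, an inhibitor of PABPC1, stood at 130% and 137%. The nuclear exosome cofactors (6 measured) had medians of -0.19 in CP25 and -0.33 in vehicle, from ZCCHC8 of the NEXT complex, at 51.5% in CP25 and 46.7% in vehicle, to MPHOSPH6 at 114% and 113%. On the deposited scale the 36 members thus had a higher median than each of these lists, without a test of the difference.

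After 2 h of transcription block, no member passed the test of CP25 against vehicle. With limma and Benjamini-Hochberg adjustment over 11745 genes, 0 of the 36 passed adjusted p 0.05 (0.00851% of all genes) and 0 reached unadjusted p under 0.05 (0.741% of all genes). The authors' deposited table gave 0 members with p under 0.05 as well, the smallest being 0.300 for CNOT6L. CP25 minus vehicle had a median log2 change of 0.02 over the 36, with 23 above 0, against 0.00558 over all genes, of which 53.7% were above 0. Without 1 library the member median ranged from -0.03 to 0.06. All CP25 libraries lay above all vehicle libraries for 1 member (2.47% of all genes) and below them for 0 (1.75%). That member was CNOT6L, at 6.96, 6.65 and 7.06 FPKM in CP25 against 5.82, 6.53 and 6.63 FPKM in vehicle. Its log2 change was 0.11 (95% interval -0.07 to 0.29, limma adjusted p = 1.00). PABPC1 had the smallest limma p, with a log2 change of 0.09 (-0.05 to 0.24, adjusted p = 1.00) and means of 730 FPKM in CP25 and 684 FPKM in vehicle. For EXOSC4 the change was -0.14 (-0.49 to 0.22), for PELO 0.000858 (-0.17 to 0.17) and for CNOT4 -0.04 (-0.25 to 0.18). The 95% interval excluded a 1.5-fold change of FPKM + 1 for all 36 members (96.3% of all genes) and a 1.25-fold change for 34 (67.1%). The limma p-values and intervals above, like the main ones below for 0 h and the difference of effects, come from fits without the replicate number. Libraries of the same number deviated together at 2 h, and the fit without the number counts that shared deviation as spread. Without the number, 0.741% of all genes reached unadjusted limma p under 0.05 at 2 h and 0.712% at 0 h, so this fit may be conservative at both times. How much of this comes from the shared deviation was not tested. With the number as a block, 0 members reached unadjusted limma p under 0.05 at 2 h (6.93% of all genes). The smallest limma adjusted p was then 0.716, for PABPC1.

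At 0 h, after 18 h of treatment, 0 of the 36 transcripts passed limma's adjusted p 0.05 over 12365 genes (0.0% of all genes) and 0 reached unadjusted p under 0.05 (0.712%). The smallest p in the authors' deposited table was 0.354, for PELO. The median log2 change of CP25 minus vehicle was -0.01 with 15 above 0, against -0.00365 over all genes, of which 47.5% were above 0. Leaving out single libraries gave member medians of -0.03 to 0.00302. All CP25 libraries lay above all vehicle libraries for 0 members (1.23% of all genes) and below them for 1 (2.85%). That member was CNOT4, at 16.5, 15.7 and 16.3 FPKM in CP25 against 16.9, 17.0 and 17.3 FPKM in vehicle. Its log2 change was -0.07 (-0.19 to 0.05, limma adjusted p = 1.00). PELO had the smallest p, with a log2 change of 0.14 (-0.05 to 0.32, limma adjusted p = 1.00), and averaged 14.3 ± 0.526 FPKM in CP25 and 13.0 ± 1.29 FPKM in vehicle with overlap (SD, n = 3). The intervals excluded a 1.5-fold change for all 36 members (95.6% of all genes) and a 1.25-fold change for 32 (71.9%). The widest belonged to PAN2, from -0.51 to 0.23, and EXOSC4, from -0.34 to 0.46.

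**Figure D4:**
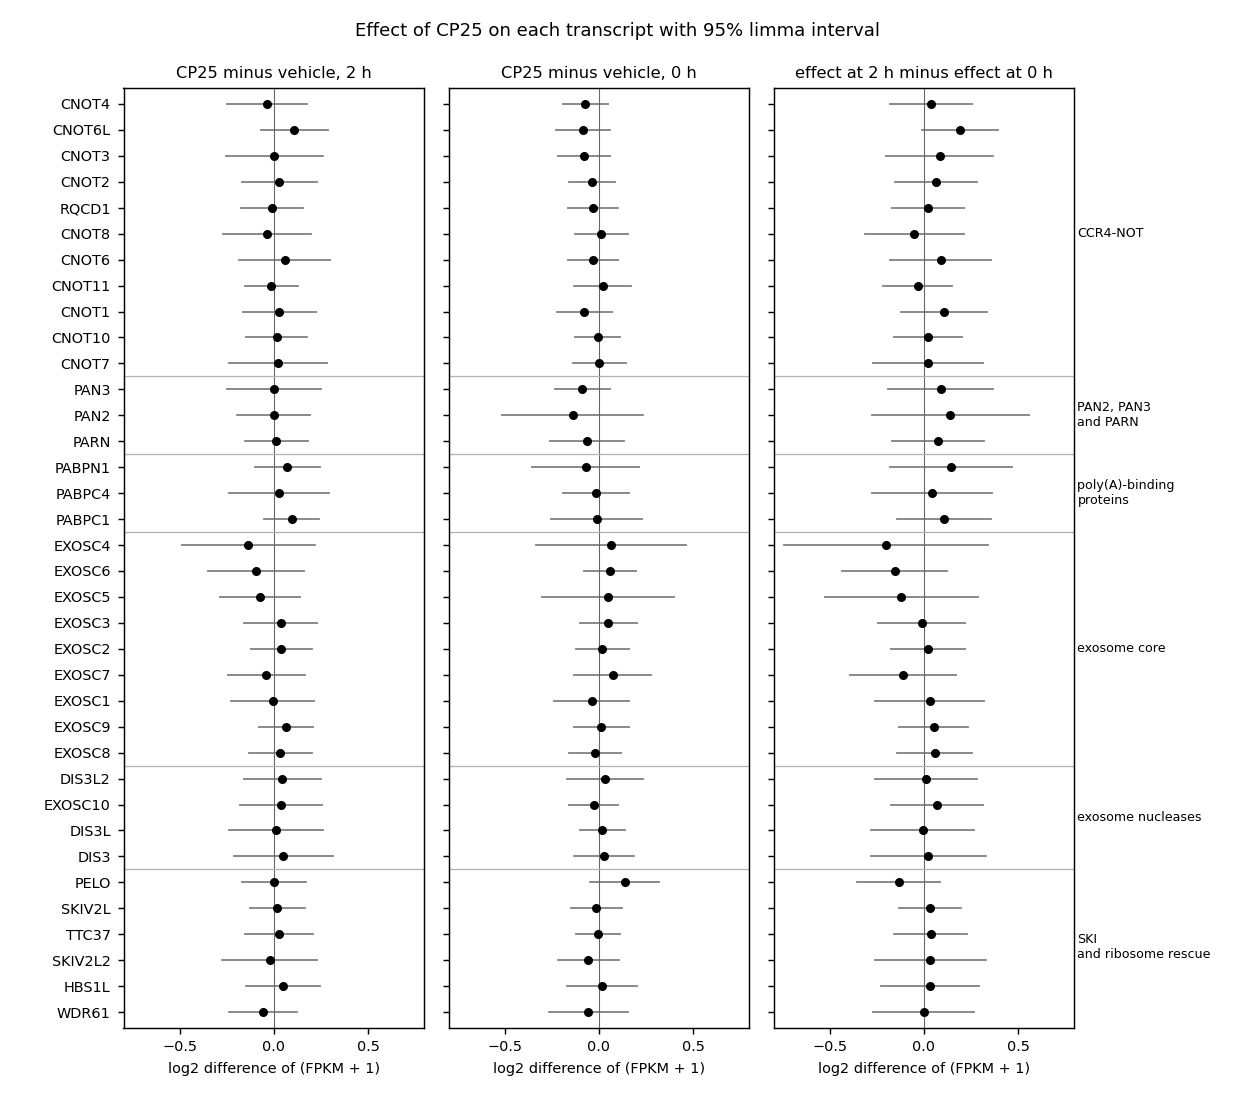
Log2 difference of FPKM + 1 between CP25 and vehicle for each transcript at 2 h and at 0 h, and the difference of these effects, with 95% limma intervals as horizontal lines. All 36 intervals include 0 in each panel, and those of EXOSC4 and, at 0 h, PAN2 are the widest.

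The question in the study's title, whether inhibiting Dcp2 changes mRNA half-life, is addressed by the CP25 effect at 2 h minus that at 0 h. A scale factor per table cancels from this difference nearly but not exactly, because 1 was added to FPKM. The cancelling is least complete for transcripts of low level. Over 12183 genes, 0 members passed limma's adjusted p 0.05 (0.0% of all genes) and 0 reached unadjusted p under 0.05 (1.26%). The median difference was 0.03 on the log2 scale with 26 of 36 above 0, against 0.00826 over all genes, of which 53.6% were above 0. Without 1 library this member median ranged from -0.00952, without CP25 replicate 2 at 2 h, to 0.07. CNOT6L had the smallest p, with a difference of 0.19 (95% interval -0.01 to 0.39, limma adjusted p = 1.00). With the replicate number as a block, CNOT6L was the 1 member at unadjusted p under 0.05 (10.5% of all genes), with a limma adjusted p of 0.405. The reported substrate EXOSC4 had a difference of -0.20 (-0.74 to 0.34), PELO -0.13 (-0.35 to 0.08) and CNOT4 0.04 (-0.18 to 0.25). The interval excluded a 1.5-fold difference for 35 members, all but EXOSC4 (86.7% of all genes), and a 1.25-fold difference for 20 (31.0%). FPKM cannot show a change of decay shared by the whole mRNA pool, and transcripts that had lost their tail may be missed by poly(A) selection. Of the 30 further genes of tail metabolism, limma likewise passed 0 at adjusted p 0.05 and 0 at unadjusted p under 0.05 in each of the 3 comparisons. The smallest p among them was that of ANGEL2 in the difference of effects (0.23, 95% interval -0.00941 to 0.47).

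Much of the spread of these transcripts within a group followed the replicate number. At 2 h the library numbered 2 had the highest value of its group in both treatments for 24 of the 36 members, against 31.3% of all genes. These included CNOT1, CNOT3, CNOT6, CNOT7, PABPC4, EXOSC10, DIS3, DIS3L and SKIV2L2. CNOT8 and EXOSC7 were lowest in that library in both treatments (26.5% of all genes). At 0 h the library numbered 1 was the lowest in both treatments for 16 members, against 32.6% of all genes. PAN2, PAN3 and PABPN1 were instead highest in the library numbered 1 (24.9% of all genes) and lowest in that numbered 3 (12.1%) at 0 h in both treatments. The median coefficient of variation of the members was 6.63% in CP25 and 7.73% in vehicle at 2 h, and 4.38% in CP25 and 4.83% in vehicle at 0 h. Over all tested genes it was 9.32% in CP25 and 8.89% in vehicle at 2 h, and 7.59% in CP25 and 7.99% in vehicle at 0 h. What the numbers stand for is not labelled.

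**Figure D5:**
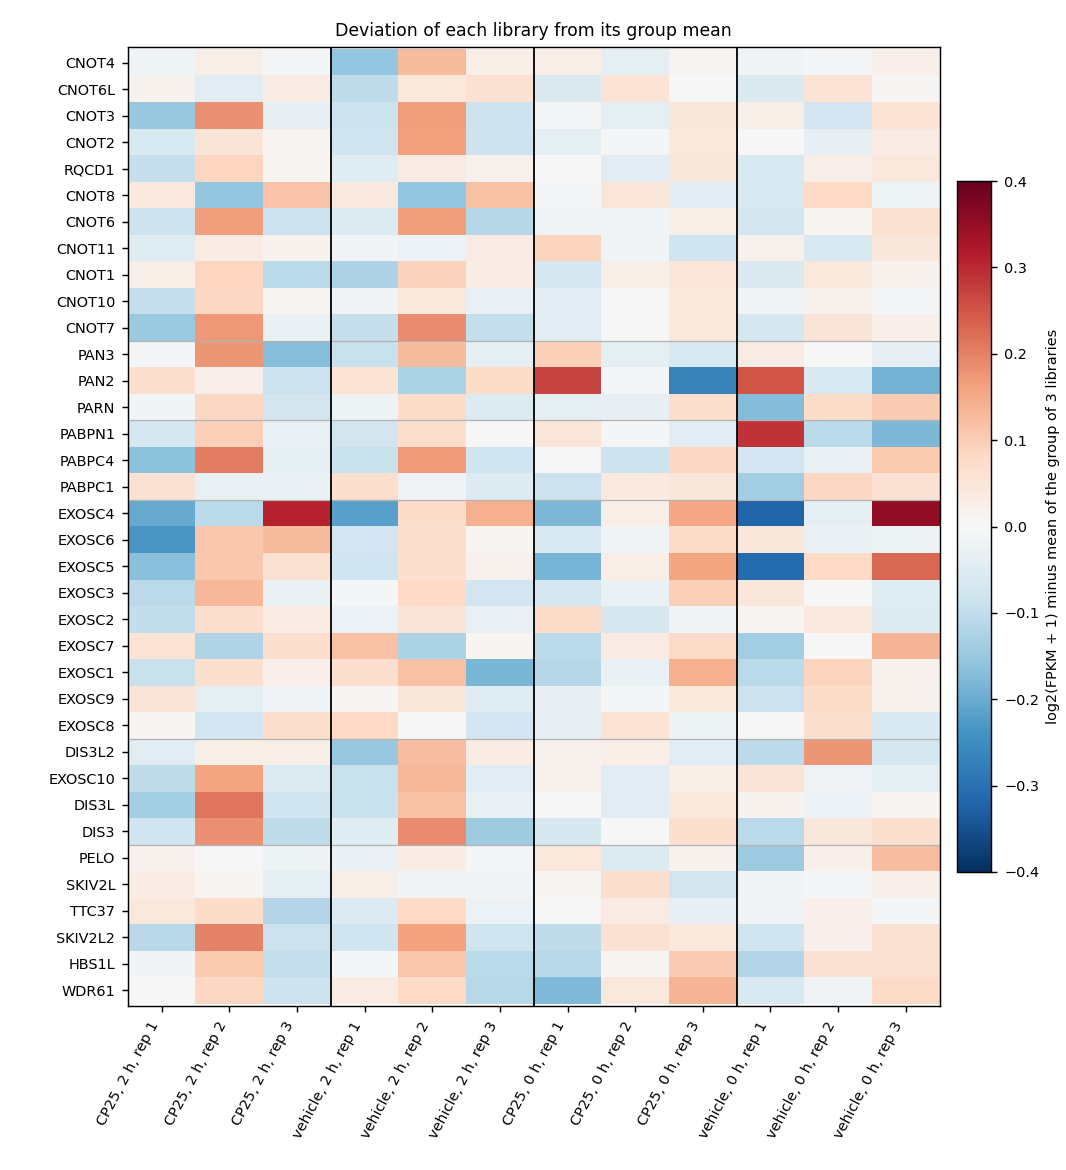
Deviation of each library's log2(FPKM + 1) from the mean of its group (red above, blue below), with transcripts in rows and the 12 libraries in columns. The columns numbered 2 at 2 h are mostly red in both treatments, and EXOSC4 and EXOSC5 are blue in each library numbered 1.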

How the data were processed

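Poly(A) RNA of 12 libraries was analysed in 4 groups of 3. The submitters' processing notes name hg19, Bowtie2 2.2.3, Trimmomatic 0.36 and CASAVA 1.8.2, but the FPKM program, the annotation and any use of strand are not given in these sources. The authors deposited FPKM per library, with 1 table per time, and for each time a CP25 and vehicle comparison whose p-value was read as unadjusted. From these, log2(FPKM + 1) was tested with limma 3.58.1 (R 4.3.3; trend, genes averaging 1 FPKM or more, Benjamini-Hochberg adjustment over all genes tested) within each time and, as the difference of effects, over all 12 libraries. The fits were tested on simulated data. Depth was estimated from FPKM steps and GENCODE 29 lengths, so fragment numbers are approximate, and the number of libraries limits the precision. The members and lists were chosen with earlier results of these data known. Values in every library are given for 11 genes fixed by name and for the lowest and highest ratio of each role group. At 2 h, CP25 and vehicle libraries of the same number deviated together (Pearson's r across genes 0.347, 0.440 and 0.147, all above 0.1); at 0 h numbers 1 and 3 did and number 2 did not (0.258, -0.01 and 0.124), so the rule that every pair exceed 0.1 was not met there. Some pairs of unlike number also exceeded 0.1. These were CP25 replicate 1 with vehicle replicate 3 at 2 h (0.117) and CP25 replicate 2 with vehicle replicate 3 at 0 h (0.124). The 0.1 rule thus did not set number 3 apart from such pairs. The labels do not explain the numbers, so the pairing rests on these correlations. Alternatives covered the pseudocount, filter, scaling, trend, replicate block, the authors' p-values and single libraries left out.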

Additional observations from a re-analysis of the deposited data

How the results depend on the processing

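No member passed limma's adjusted p in any comparison under any alternative run. Over all genes, limma called 1 gene at 2 h, and 1 to 7 without 1 library; the authors' p-values, adjusted here, called 0. At 0 h it called 0, and 1 to 4 without 1 library, and for the difference of effects 0, and 0 to 3 without 1 library. With the replicate number as a block, limma called 1, 0 and 0 genes in these comparisons. The block took members at unadjusted p under 0.05 at 0 h, where the rule for pairing was not met, to 3, against 6.93% of all genes. These were CNOT1, CNOT3 and PAN2 (smallest limma adjusted p = 0.707). For the difference of effects the block took them to 1 (CNOT6L), and it changed no adjusted call of a member. Some other settings took 1 member each under unadjusted p 0.05. At 0 h these were CNOT1 after quantile normalization, PARN without vehicle replicate 1 and PELO without vehicle replicate 3. For the difference of effects it was CNOT6L, without vehicle replicate 1 at 0 h or without vehicle replicate 3 at 2 h. The members below a log2 ratio of -1 numbered 2 to 3 in vehicle and 3 in CP25 without 1 library, and 2 in both treatments with libraries centred on the median, where EXOSC4 stood at -0.98 in CP25 and -0.76 in vehicle. Centring moved the all-gene median ratio to 0.17 in both treatments, and quantile normalization to 0.06 in CP25 and 0.05 in vehicle; the member median was 0.32 in CP25 and 0.31 in vehicle with centring. The member median less the all-gene median was 0.12 to 0.17 in CP25 and 0.0976 to 0.19 in vehicle without 1 library, and 0.00115 in CP25 and -0.0272 in vehicle after quantile normalization. Leaving out both libraries numbered 2 at 2 h or both numbered 1 at 0 h, chosen after seeing the data, kept the count of members below -1 at 3. With 3 libraries a group, EXOSC4 moved most with single libraries: its CP25 change was -0.29 at 2 h without CP25 replicate 3, and 0.24 at 0 h without vehicle replicate 3.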
